A study of Mus musculus with 9 samples.

Results

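The genes described here handle calcium in the heart muscle cell, most of them at the sarcoplasmic reticulum, the internal calcium store. They were chosen by name, as 10 genes: Ryr2, Casq2, Fkbp1b, Hrc and Asph on the release side of the store, Atp2a2 and Pln on the uptake side, S100a1, which acts on both, and Cacna1c and Slc8a1 in the surface membrane. A probe set was taken as a member when the platform annotation gave it exactly 1 symbol and that symbol was on the list. This found 12 probe sets of 8 genes among 12488 probe sets in all. Pln and Asph had no probe set under that rule and are not analysed here.

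All 9 samples were RNA of both ventricles of the heart, from female mice of 3 months, and every one of these mice was transgenic for IGF1R, the receptor of insulin-like growth factor 1. In 3 samples (IGF1R-caPI3K) it was combined with a constitutively active p110 form of the lipid kinase PI3K, in 3 (IGF1R-dnPI3K) with a dominant negative p110 form, and in 3 (IGF1R) it was alone. The comparisons are therefore between transgenic hearts, and none has a normal heart on either side. Samples without a transgene or with a PI3K form alone, which the labels name, are not analysed here. The sources used here do not name the promoters of the transgenes. One array was run per sample, and the labels do not state that each sample is a separate animal, so the p-values measure only the spread between these samples.

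In each heartbeat, calcium that enters through the L-type channel opens the ryanodine receptor, and the store releases a larger amount that starts contraction. The SERCA pump then returns calcium to the store, while the sodium-calcium exchanger carries the rest out of the cell. Inside the store calcium is held by calsequestrin, and small partner proteins set how readily the release channel opens and how fast the pump runs. Weaker SERCA activity is a known feature of failing hearts, and signalling through PI3K is known for its part in heart growth.

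Upstream sequences are shown for the only 2 members that passed the test described below, so that the genes whose RNA differed can be compared at their start sites. Each window runs from 250 bases before to 50 bases after the annotated start, is written 5' to 3' on the strand of the gene, and comes from RefSeq on build GRCm38.p6. Capitals mark E-boxes (CANNTG, a palindrome in its fixed letters, so both strands were read at once). Ryr2 lies at chr13:12106896-12107195 on the minus strand and S100a1 at chr3:90514281-90514580 on the minus strand.
Ryr2: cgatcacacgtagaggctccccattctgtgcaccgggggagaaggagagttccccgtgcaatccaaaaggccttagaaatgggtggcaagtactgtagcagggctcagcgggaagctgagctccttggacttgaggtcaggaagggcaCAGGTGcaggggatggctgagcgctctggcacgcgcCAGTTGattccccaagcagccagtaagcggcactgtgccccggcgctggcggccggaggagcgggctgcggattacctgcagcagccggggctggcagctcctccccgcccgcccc
S100a1: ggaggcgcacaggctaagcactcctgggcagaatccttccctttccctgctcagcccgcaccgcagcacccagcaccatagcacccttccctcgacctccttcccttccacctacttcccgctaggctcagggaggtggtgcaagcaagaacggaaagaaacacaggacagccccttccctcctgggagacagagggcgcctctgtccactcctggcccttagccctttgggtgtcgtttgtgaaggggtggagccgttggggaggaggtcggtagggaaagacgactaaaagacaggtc

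The Ryr2 window held 2 E-boxes, CAGGTG and CAGTTG, which start 102 and 66 bases before the start site. The S100a1 window held none of the motifs searched. Windows were given for 8 of the members, 10 in all, with 3 for Cacna1c; Atp2a2 and Asph were not matched. An E-box was found in 8 of the 10 windows, against 72.3% of all 32851 windows of the same length. GATAA was found on either strand in 3 (Hrc, Pln and Slc8a1), against 25.4% of all windows. TATAAA was found in 1 (Pln), against 13.6%, and the MEF2 motif in 1 (Casq2), against 3.19%. GTAAACA, the core bound by forkhead factors, was found in 0 of the 10 windows, against 3.65% of all. These matches describe the letters of the windows only.

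Values are the deposited signals on a linear intensity scale, which had been scaled so that arrays share a trimmed mean. Each probe set was compared in limma on log2 signal with all 9 arrays in 1 fit, and p-values were adjusted by Benjamini-Hochberg over the 7898 probe sets that passed a filter on low signal. A difference passed where that adjusted p was under 0.05. Of the 12 member probe sets, 9 were tested, and every one of the 8 genes had at least 1 among them. The other 3 lay near background on all arrays. They were S100a1 95452_i_at (means 49.7, 42.8 and 58.7 in the IGF1R-caPI3K, IGF1R-dnPI3K and IGF1R groups), S100a1 95454_at (25.7, 34.1 and 32.6) and Slc8a1 93168_at (43.5, 31.7 and 53.3).

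Some array measures differed by group. The median signal of an array was 175.5 to 186.35 in the IGF1R-caPI3K group and 161.3 to 185.5 in the IGF1R-dnPI3K group, against 190.55 to 197.25 in the IGF1R group. The added control CreX had a 3' over 5' signal ratio of 1.74 to 1.89 on IGF1R-caPI3K arrays and 1.79 to 1.83 on IGF1R-dnPI3K arrays, against 1.05 to 1.26 on IGF1R arrays. The same ratio for Gapdh was 0.843 to 0.873 and 0.844 to 0.943, against 0.747 to 0.818. For Actb it was 1.01 to 1.04 and 1.09 to 1.15, against 1.04 to 1.24, and for pyruvate carboxylase 1.57 to 1.87 and 1.79 to 3.25, against 1.40 to 1.71, so neither of these set IGF1R arrays apart from both other groups. IGF1R-dnPI3K replicate 3 stood apart, with a mean correlation to the other arrays of 0.927 and the pyruvate carboxylase ratio of 3.25. The summed signal of 8 ventricular muscle markers was 149674 to 156297 in IGF1R-caPI3K samples and 162281 to 200144 in IGF1R-dnPI3K samples, against 138579 to 149606 in IGF1R samples. The members of this sum went both ways: Ckm averaged 1756, 2129 and 2641 in the IGF1R-caPI3K, IGF1R-dnPI3K and IGF1R groups, and Myl2 averaged 23380.0, 26470 and 18867. Of 5 atrial markers, Myl7 and Sln were near background in all 3 groups, with means of at most 76.5, and Myl4, Nppa and Dkk3 were tested. Nppa passed as higher in IGF1R-dnPI3K against IGF1R samples (5430 ± 1227 against 3077 ± 320, SD, n = 3 each). The summed atrial markers were 4222 to 4977 in IGF1R-caPI3K samples and 4445 to 6729 in IGF1R-dnPI3K samples, against 3395 to 4192 in IGF1R samples. Nppa made up most of this sum. Myl4 averaged 344, 203 and 321 and Dkk3 322, 185 and 267 in the IGF1R-caPI3K, IGF1R-dnPI3K and IGF1R groups. Both were lowest with dominant negative PI3K, and neither passed.

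Ryr2, the release channel itself, was lower with either form of PI3K than with the receptor transgene alone. Its signal was 4065, 4464 and 4292 in IGF1R-caPI3K samples, 4949, 5294 and 4066 in IGF1R-dnPI3K samples, and 7197, 6733 and 6909 in IGF1R samples. All 6 samples with a PI3K transgene lay below all 3 without one, and the other groups overlapped each other. The IGF1R-caPI3K mean was 4274 ± 200 against 6946 ± 234 in IGF1R samples (SD, n = 3 each). On the log2 scale this was -0.70 ± 0.11 (SE, 95% interval -0.95 to -0.45, limma adjusted p = 0.0464), a signal 0.615 times as high. The IGF1R-dnPI3K mean was 4770 ± 634 (SD, n = 3), a log2 difference of -0.55 ± 0.11 from IGF1R samples (SE, interval -0.80 to -0.30, limma adjusted p = 0.0170). Between IGF1R-caPI3K and IGF1R-dnPI3K samples the difference was -0.15, with an interval of -0.40 to 0.10, and did not pass (limma adjusted p = 0.542). Both comparisons with IGF1R share the same 3 IGF1R arrays, so they are not independent of each other.

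**Figure D1:**
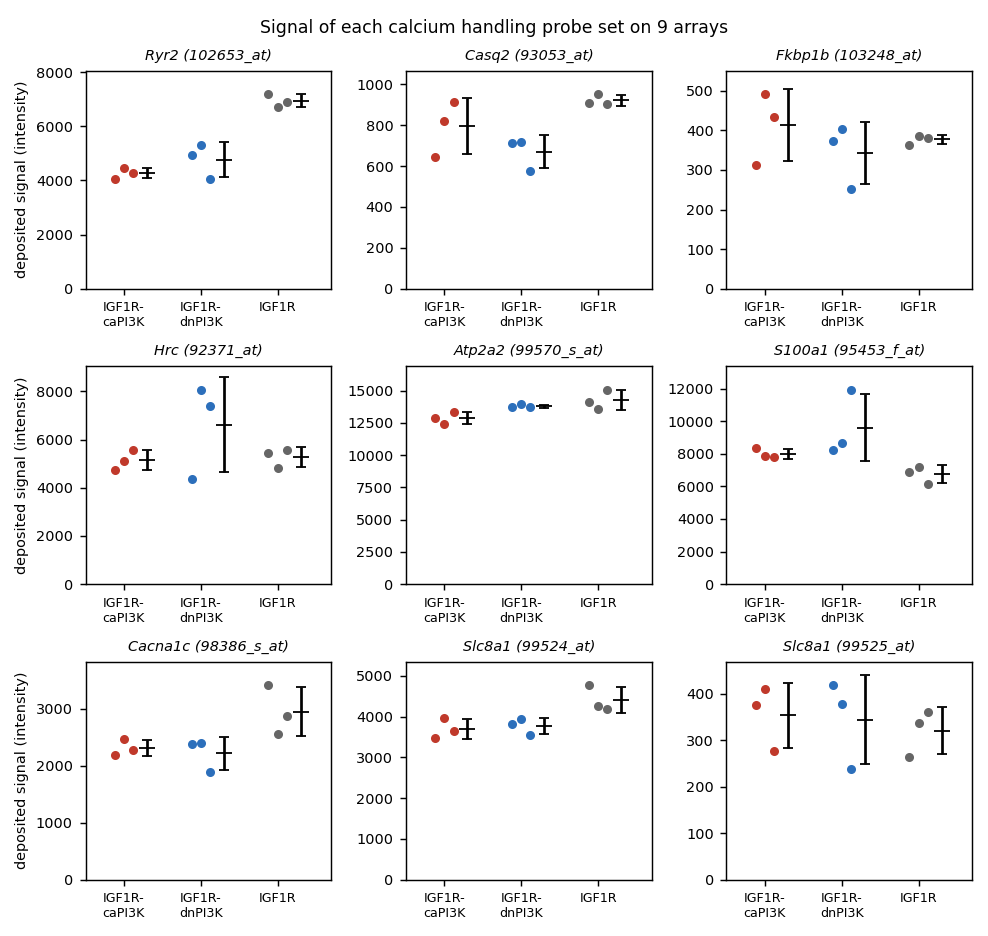
Deposited signal (linear intensity, y axis from 0) of the 9 tested probe sets. Points are arrays of the IGF1R-caPI3K, IGF1R-dnPI3K and IGF1R groups, from left to right, and bars beside them are mean ± SD (n = 3). In the Ryr2 panel the 6 arrays with a PI3K transgene lie at 5294 or below and the IGF1R arrays at 6733 or above.

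Ryr2 was the only member of the 9 that passed in IGF1R-caPI3K against IGF1R samples, where 0.215% of all tested probe sets passed in either direction and 0.0633% passed as lower. Its p ranked 11 among 7898 there and 230 in IGF1R-dnPI3K against IGF1R samples. An F test over the 3 groups gave Ryr2 an adjusted p of 0.0177 in limma, and no other member was under 0.05 in it (S100a1 followed at 0.0940). The call with active PI3K was close to the threshold. It was lost when any IGF1R or IGF1R-caPI3K array was left out (limma adjusted p 0.120 to 0.169), while the log2 difference stayed between -0.73 and -0.67. With dominant negative PI3K the call was lost when IGF1R replicate 1, 2 or 3 was left out (limma adjusted p 0.0559, 0.0526 and 0.0646). Scaling the arrays to a common median moved the median of all probe sets by 0.101 and 0.169 in these comparisons and gave Ryr2 differences of -0.60 (limma adjusted p = 0.0542) and -0.38 (limma adjusted p = 0.0515).

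The sample titles carry numbers that begin with 10, 14 or 31, and the sources used here do not say what they mark. Among samples with numbers beginning with 14, Ryr2 was lower in the 2 IGF1R-caPI3K samples than in the 2 IGF1R samples by a log2 difference of -0.67. Among those beginning with 10, with 1 sample a group, it differed by -0.77 between IGF1R-caPI3K and IGF1R and by -0.48 between IGF1R-dnPI3K and IGF1R. The 31 range held only IGF1R-dnPI3K samples. With the range as a block in the fit neither Ryr2 call passed (limma adjusted p 0.0691 and 0.406). The median signal of an array separates IGF1R arrays from the other 6 as Ryr2 does, and the Ryr2 differences with a common median are given above. The ratios of CreX and Gapdh, but not those of Actb and pyruvate carboxylase, also separate IGF1R arrays from the other 6, and their part in this difference was not tested. Nor was the part of the muscle markers, some of which were higher and 1 of which (Ckm) was lower where Ryr2 was lower. In RNA of whole ventricles, fewer cells of a type and less RNA per cell cannot be told apart.

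Casq2, cardiac calsequestrin, the main calcium-binding protein inside the store, did not pass in any comparison. Its signal was 647, 822 and 917 in IGF1R-caPI3K samples, 714, 719 and 576 in IGF1R-dnPI3K samples, and 911, 954 and 905 in IGF1R samples. The IGF1R-dnPI3K samples all lay below the IGF1R samples, whereas 1 IGF1R-caPI3K sample lay within the IGF1R range. The log2 difference was -0.47 ± 0.15 with dominant negative PI3K (SE, interval -0.80 to -0.14, limma adjusted p = 0.0608) and -0.23 ± 0.15 with active PI3K (limma adjusted p = 0.444). Without IGF1R-dnPI3K replicate 1 the first of these passed (-0.52, limma adjusted p = 0.0455). The IGF1R-dnPI3K samples left in that fit share no title number range with IGF1R samples. Among numbers beginning with 10 the difference was -0.34 between 1 IGF1R-dnPI3K and 1 IGF1R sample.

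Fkbp1b, the calstabin that binds the ryanodine receptor, overlapped between all groups. Its signal was 313, 492 and 433 in IGF1R-caPI3K samples, 372, 403 and 253 in IGF1R-dnPI3K samples, and 364, 387 and 382 in IGF1R samples. The IGF1R samples lay close together (377.6 ± 11.9, SD, n = 3), and both other groups spread to either side of them. The log2 differences from IGF1R were 0.10 (interval -0.36 to 0.57) with active PI3K and -0.17 (interval -0.63 to 0.30) with dominant negative PI3K.

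Hrc, a histidine-rich calcium-binding protein of the store, spread widely in 1 group. Its signal was 4742, 5094 and 5576 in IGF1R-caPI3K samples, 4370.0, 8074 and 7390.3 in IGF1R-dnPI3K samples, and 5439, 4818 and 5559 in IGF1R samples. IGF1R-dnPI3K replicate 1 held the lowest value of all 9 and replicates 2 and 3 the highest. The log2 difference of the IGF1R-dnPI3K group from IGF1R was 0.28 (interval -0.15 to 0.71, limma adjusted p = 0.351), and that of IGF1R-caPI3K from IGF1R was -0.04 (interval -0.47 to 0.39). Without IGF1R-dnPI3K replicate 1, Hrc passed as higher in IGF1R-dnPI3K than in IGF1R samples (0.55, limma adjusted p = 0.00915) and as lower in IGF1R-caPI3K than in IGF1R-dnPI3K samples (-0.59, limma adjusted p = 0.0154).

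Atp2a2, which encodes the cardiac SERCA2 calcium pump, did not pass in any comparison. Its signal was 12903, 12424 and 13308 in IGF1R-caPI3K samples, 13755, 13945 and 13735 in IGF1R-dnPI3K samples, and 14141, 13577 and 15089.6 in IGF1R samples. The IGF1R-caPI3K samples lay below both other groups, which overlapped. The log2 difference of IGF1R-caPI3K from IGF1R was -0.15 (interval -0.34 to 0.04, limma adjusted p = 0.392), that of IGF1R-dnPI3K from IGF1R was -0.05 (interval -0.24 to 0.14), and that of IGF1R-caPI3K from IGF1R-dnPI3K was -0.10 (interval -0.29 to 0.09). The name of its probe set marks a possible shared target, and quantile normalization gave -0.41 in IGF1R-dnPI3K against IGF1R samples (limma adjusted p = 0.0324), where scaling to a common median gave 0.12 (limma adjusted p = 0.505).

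S100a1, a calcium sensor that binds both the release channel and the pump, was higher with dominant negative PI3K. The signal of 95453_f_at was 8363, 7841 and 7790 in IGF1R-caPI3K samples, 8218, 8676 and 11944 in IGF1R-dnPI3K samples, and 6907, 7204 and 6145 in IGF1R samples. All 6 samples with a PI3K transgene lay above all 3 IGF1R samples, with IGF1R-dnPI3K replicate 3 far above the rest. The mean was 9613 ± 2032 in IGF1R-dnPI3K samples against 6752 ± 546 in IGF1R samples (SD, n = 3 each). On the log2 scale the difference was 0.49 ± 0.14 (SE, interval 0.19 to 0.80, limma adjusted p = 0.0421). With active PI3K the mean was 7998 ± 317 (SD, n = 3) and the difference from IGF1R, 0.25 (interval -0.06 to 0.55), did not pass (limma adjusted p = 0.374). Nor did the difference of IGF1R-caPI3K from IGF1R-dnPI3K, -0.25 (interval -0.55 to 0.06, limma adjusted p = 0.429).

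The S100a1 call rested on 1 of 3 probe sets and on several arrays. The other 2 probe sets gave signals of at most 66.6 on any array, so they could not be set beside it, and the name of 95453_f_at marks a family of similar sequences. Without IGF1R-dnPI3K replicate 3 the difference was 0.33 (limma adjusted p = 0.0474), over 1.5 times smaller than with it. The call was lost without IGF1R-dnPI3K replicate 2 (limma adjusted p = 0.0501), without any IGF1R array (limma adjusted p 0.0793 to 0.139) and without any IGF1R-caPI3K array (limma adjusted p 0.0623 to 0.0649). Quantile normalization reduced the difference to 0.21 (limma adjusted p = 0.193). Among samples with numbers beginning with 10 it was 0.42 between 1 IGF1R-dnPI3K and 1 IGF1R sample, and with the number range as a block it was 0.32 (limma adjusted p = 0.580).

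Cacna1c, the pore subunit of the L-type channel through which calcium enters, did not pass. Its signal was 2189, 2463 and 2280 in IGF1R-caPI3K samples, 2375.0, 2396 and 1883 in IGF1R-dnPI3K samples, and 3415, 2565 and 2872 in IGF1R samples. All samples with a PI3K transgene lay below the IGF1R samples, which spread from 2565 to 3415. The name of the only Cacna1c probe set, 98386_s_at, marks a possible shared target. The log2 difference from IGF1R was -0.34 ± 0.14 with active PI3K (SE, interval -0.65 to -0.04, limma adjusted p = 0.218) and -0.41 ± 0.14 with dominant negative PI3K (SE, interval -0.71 to -0.11, limma adjusted p = 0.0678). Without IGF1R-dnPI3K replicate 1 the second passed (-0.46, limma adjusted p = 0.0472). That fit, too, leaves IGF1R-dnPI3K samples that share no title number range with IGF1R samples. Among numbers beginning with 10 the difference was -0.27 between 1 IGF1R-dnPI3K and 1 IGF1R sample.

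Slc8a1, the sodium-calcium exchanger NCX1, had 2 tested probe sets that differed in direction. On 99524_at the signal was 3480, 3968 and 3658 in IGF1R-caPI3K samples, 3822, 3930 and 3557 in IGF1R-dnPI3K samples, and 4775, 4266 and 4179 in IGF1R samples, with no overlap between IGF1R and the others. On 99525_at it was 375, 410 and 276 in IGF1R-caPI3K samples, 418, 377 and 237 in IGF1R-dnPI3K samples, and 264, 338 and 360.0 in IGF1R samples, which overlapped throughout. The log2 differences from IGF1R on 99524_at were -0.25 (interval -0.47 to -0.03, limma adjusted p = 0.225) with active PI3K and -0.22 (limma adjusted p = 0.155) with dominant negative PI3K. On 99525_at they were 0.13 and 0.07, with intervals from -0.39 to 0.66 and from -0.45 to 0.60. The centred log2 signals of these 2 probe sets differed by 0.318 (root mean square over 9 arrays), more than those of 99524_at and Cacna1c, which lay closest among the members at 0.115.

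**Figure D2:**
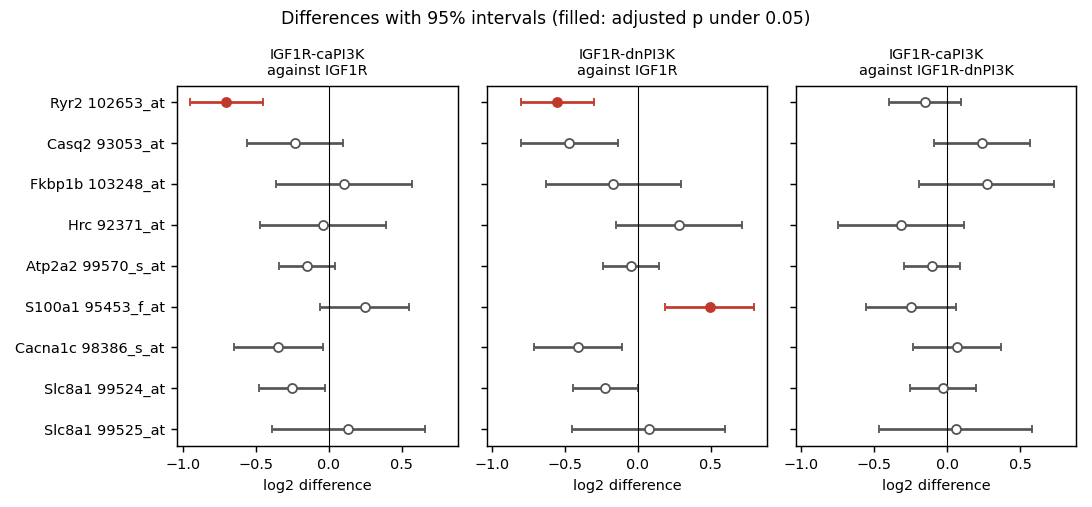
Log2 differences (x axis) with 95% intervals for the 9 member probe sets, in IGF1R-caPI3K against IGF1R, IGF1R-dnPI3K against IGF1R and IGF1R-caPI3K against IGF1R-dnPI3K samples. Filled points passed at an adjusted p under 0.05: Ryr2 at -0.70 and -0.55, and S100a1 at 0.49.

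The members were then counted together and read against all probe sets tested. In IGF1R-dnPI3K against IGF1R samples 2 of 9 passed, 1 higher (S100a1) and 1 lower (Ryr2), where 13.5% of all tested probe sets passed, 5.7% as higher and 7.8% as lower. In IGF1R-caPI3K against IGF1R-dnPI3K samples 0 of 9 passed in limma, where 1.24% of all did, and 0 of 9 had an unadjusted p under 0.05, where 15.4% of all did. An unadjusted p under 0.05 was found for 3 members in IGF1R-caPI3K against IGF1R samples (Ryr2, Cacna1c and Slc8a1 99524_at) and for 5 in IGF1R-dnPI3K against IGF1R samples (these, Casq2 and S100a1). The shares of all probe sets were 18.4% and 32.2%. The median log2 difference of the members was -0.15, -0.17 and -0.03 in the 3 comparisons, against -0.04, -0.09 and 0.05 over all probe sets tested, and 6, 6 and 5 of the 9 were negative, against 54.5%, 59.0% and 43.1% of all.

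Groups that did not overlap were more frequent on the lower side. In IGF1R-caPI3K against IGF1R samples 4 members lay wholly lower (Ryr2, Cacna1c, Slc8a1 99524_at and Atp2a2), where 18.8% of all probe sets did, and 1 wholly higher (S100a1), where 14% did. In IGF1R-dnPI3K against IGF1R samples 4 lay wholly lower (Ryr2, Casq2, Cacna1c and Slc8a1 99524_at), where 20.8% of all did, and 1 wholly higher (S100a1), where 13.6% did. In IGF1R-caPI3K against IGF1R-dnPI3K samples 1 lay wholly lower (Atp2a2), where 8.66% of all did, and 0 wholly higher, where 10.9% did. The share of calls that were higher in IGF1R-dnPI3K samples over all probe sets depended on scaling: 450 were higher and 616 lower as deposited, and 832 were higher and 333 lower with a common median.

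To set the members beside each other without the scaling of an array, each was divided by Atp2a2 on the same array and centred on the mean of the IGF1R arrays. Relative to the pump, Ryr2 lay at -0.63 to -0.44 in IGF1R-caPI3K samples, -0.72 to -0.36 in IGF1R-dnPI3K samples and -0.09 to 0.06 in IGF1R samples on the log2 scale. S100a1 lay at 0.31 to 0.46, 0.34 to 0.88 and -0.21 to 0.17 in the same groups. For both genes the IGF1R samples stayed apart from all others on this scale, which shows unequal change of a pair of genes and not which of them changed. Cacna1c lay at -0.28 to -0.05, -0.58 to -0.25 and -0.12 to 0.23, and Casq2 at -0.37 to 0.09, -0.63 to -0.32 and -0.11 to 0.12 in the same groups. In both genes the IGF1R-dnPI3K samples lay below all IGF1R samples and overlapped the IGF1R-caPI3K samples. No test was run on these ratios.

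**Figure D3:**
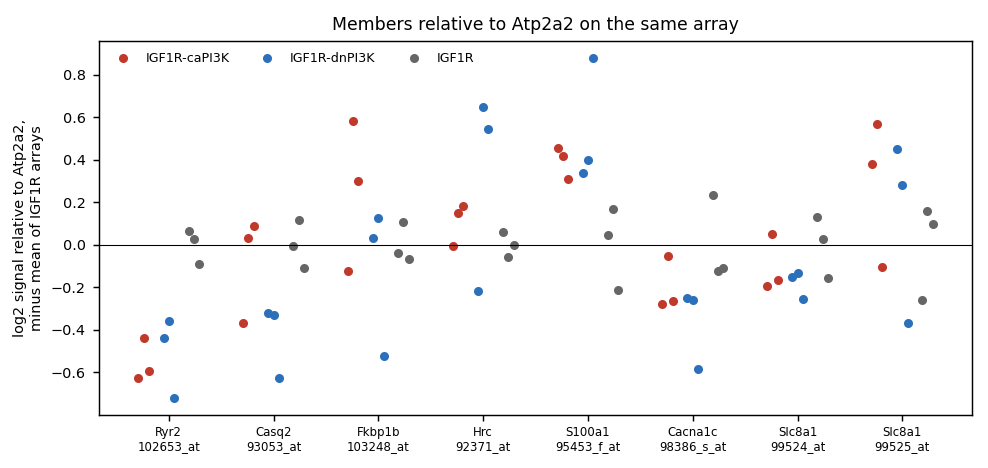
Log2 signal of each member relative to Atp2a2 on the same array, minus the mean of the IGF1R arrays (y axis). Points are arrays of the IGF1R-caPI3K, IGF1R-dnPI3K and IGF1R groups, from left to right in each column. Ryr2 lies at -0.36 or below and S100a1 at 0.31 or above in all samples with a PI3K transgene.

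The genes whose pattern was most like that of Ryr2 were sought among 5934 genes by the root mean square difference of centred log2 signals over the 9 arrays, a measure on which Ryr2 itself spreads by 0.318. Etfa, a subunit of the electron transfer flavoprotein of mitochondria, was nearest at 0.0714. Cox7b, a subunit of cytochrome c oxidase, followed at 0.0724, and Mtf2, a chromatin protein of the Polycomb group, at 0.0858. Etfa averaged 4151 ± 45.5 in IGF1R-caPI3K samples, 4534 ± 933 in IGF1R-dnPI3K samples and 6585 ± 327 in IGF1R samples (SD, n = 3 each). Their log2 differences from IGF1R were -0.66, -0.58 and -0.61 with active PI3K, which did not pass (limma adjusted p 0.0693, 0.0623 and 0.0814 for Etfa, Cox7b and Mtf2). With dominant negative PI3K they were -0.56, -0.41 and -0.57, which passed (limma adjusted p 0.0297, 0.0468 and 0.0261). The genes were picked for this likeness, so their values describe it and test nothing.

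A wider list of 101 genes that act on the same calcium cycle was read beside the members. It covers other release channels and store proteins, pumps, channel subunits, exchangers, calmodulin and its kinases, the beta-adrenergic pathway, phosphatases and mitochondrial carriers. Of these, 59 had a probe set and 43, with 53 probe sets, were tested. In IGF1R-caPI3K against IGF1R samples 0 of 53 passed in limma, where 0.215% of all did, 14 had an unadjusted p under 0.05, where 18.4% of all did, and the median log2 difference was -0.01. In IGF1R-dnPI3K against IGF1R samples 4 passed as higher and 8 as lower, 22.6% of 53, where 13.5% of all probe sets passed, and their median was -0.01. With a common median as the scaling, 6 passed as higher and 5 as lower, and 9 genes were called under both scalings; Akap1, Ppp2cb and Vdac2 were lost and Ppp1r2 and Sri gained. In IGF1R-caPI3K against IGF1R-dnPI3K samples 2 passed as higher (Casq1 and Ryr1), 3.77% of 53, where 1.24% of all passed.

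Casq1, the calsequestrin of skeletal muscle, had the lowest p among these genes with dominant negative PI3K. Its signal was 6736, 7298 and 6592 in IGF1R-caPI3K samples, 1751, 1711 and 2954 in IGF1R-dnPI3K samples, and 5592, 4473 and 5422 in IGF1R samples. The 3 groups did not overlap. It was lower in IGF1R-dnPI3K than in IGF1R samples by a log2 difference of -1.31 ± 0.19 (SE, limma adjusted p = 0.00827) and higher in IGF1R-caPI3K than in IGF1R-dnPI3K samples by 1.73 ± 0.19 (SE, limma adjusted p = 0.00241). The difference of IGF1R-caPI3K from IGF1R was 0.42 (limma adjusted p = 0.272). Casq2, the cardiac form, was also lowest in IGF1R-dnPI3K samples but differed there by less, and did not pass.

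Ryr1, the ryanodine receptor of skeletal muscle, was dim on these arrays. Its signal was 145, 158.0 and 189 in IGF1R-caPI3K samples, 51.5, 68.6 and 72.8 in IGF1R-dnPI3K samples, and 194, 155 and 123 in IGF1R samples. Only the IGF1R-dnPI3K samples stood apart. They lay under the filter level, which was 98.6 to 119 over the arrays, so Ryr1 was tested only through the groups where it was higher. It is counted among the calls of both comparisons with IGF1R-dnPI3K, but no size is given for its difference. It did not pass with the filter on all 9 arrays or with the higher floor. Of other skeletal muscle markers, Tnnt3, Tnni2 and Myh1 were near background, with means of at most 34.8 in any group. The summed signal of all 8 skeletal markers measured, of which 5 were tested, Casq1 among them, was 8439 to 9483 in IGF1R-caPI3K samples. It was 3640 to 4698 in IGF1R-dnPI3K samples, against 6349 to 7373 in IGF1R samples. Casq1 carried these differences: the group means of the other 4 tested markers summed to 1988, 1962 and 1796 in the same groups, and none of the 4 passed as lower.

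The phosphatases that can remove phosphate from the release channel, phospholamban and the L-type channel had the most calls. Of 8 phosphatase probe sets, 4 passed as lower and 1 as higher in IGF1R-dnPI3K against IGF1R samples, with a median log2 difference of -0.58. Over all probe sets 7.8% passed as lower and 5.7% as higher. Ppp2r5a, a regulatory subunit of protein phosphatase 2A, was 1764, 2207 and 1484 in IGF1R-dnPI3K samples against 2930, 2739 and 3537 in IGF1R samples, a difference of -0.77 ± 0.16 (SE, limma adjusted p = 0.0181). Ppp1cc, a catalytic subunit of protein phosphatase 1, was 1145, 1128 and 801 against 1561, 1510 and 1617 in IGF1R samples, a difference of -0.63 ± 0.14 (SE, limma adjusted p = 0.0211). In both genes no IGF1R-dnPI3K sample reached the lowest IGF1R sample. The others, named after their values were seen, were the catalytic subunits Ppp1cb (-1.23) and Ppp2cb (-0.74), which were lower, and the scaffold subunit Ppp2r1a (0.47), which was higher. Without IGF1R-dnPI3K replicate 3 their differences were -0.76, -0.47 and 0.31, each over 1.5 times smaller, and all 3 still passed. With active PI3K 0 of the 8 passed in limma, 3 had an unadjusted p under 0.05 (18.4% of all did), and their median difference from IGF1R was -0.30.

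Among the other roles, Fxyd1, or phospholemman, which restrains the sodium pump and is known to act on the exchanger, was 10452, 11589 and 16741 in IGF1R-dnPI3K samples against 8071, 8115 and 7402 in IGF1R samples. The difference was 0.69 ± 0.15 (SE, limma adjusted p = 0.0204). Akap1, an anchor for protein kinase A at mitochondria, had 3 probe sets. On 97367_at it was 440.0, 559 and 457 in IGF1R-dnPI3K samples against 878, 660.0 and 920 in IGF1R samples, a difference of -0.75 ± 0.18 (SE, limma adjusted p = 0.0251), but on the other 2 the difference was 0.27 and 0.14 and did not pass, and without IGF1R-dnPI3K replicate 3 Akap1 was not called. Fxyd1 and this probe set of Akap1 each kept IGF1R-dnPI3K and IGF1R samples apart. On the Akap1 probe set the IGF1R-caPI3K samples overlapped both of these groups. Named after their values were seen, Gnas (0.64) passed as higher and Vdac2 on 160529_r_at (-1.03) as lower in the same comparison. Without IGF1R-dnPI3K replicate 3 these were 0.39 and -0.58, again over 1.5 times smaller, and both genes were still called. The other Vdac2 probe set (-0.72) did not pass. The probe set of Gnas that passed, 93271_s_at, has a name that marks a possible shared target. Atp2a1, the SERCA pump of skeletal muscle, was 222, 191 and 152 in IGF1R-dnPI3K samples against 102, 118 and 89.0 in IGF1R samples. The IGF1R values lie around the filter level, so no size is given for this call, which was not made with the filter on all 9 arrays. The name of the Atp2a1 probe set, 98126_s_at, marks a possible shared target. In the surface channel subunits 0 of 6 probe sets passed in limma (0 at an unadjusted p under 0.05), and in calmodulin and its kinases 0 of 3 (1). Over all probe sets in IGF1R-dnPI3K against IGF1R samples, 13.5% passed and 32.2% had an unadjusted p under 0.05.

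**Figure D4:**
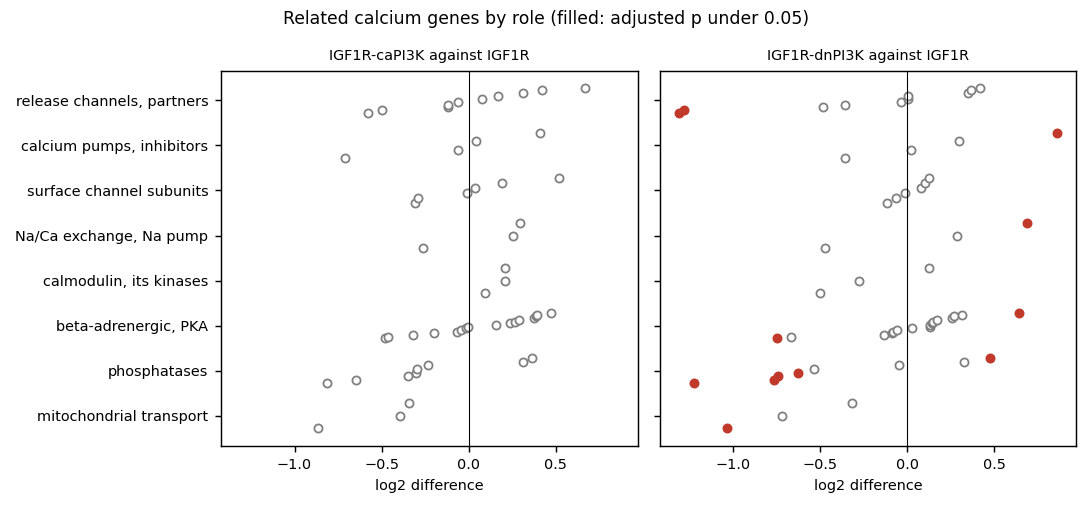
Log2 differences (x axis) of the 53 related probe sets, by role, in IGF1R-caPI3K against IGF1R samples (left) and IGF1R-dnPI3K against IGF1R samples (right). Filled points passed at an adjusted p under 0.05: 0 on the left, and 4 higher and 8 lower on the right, of which 5 are in the phosphatases. Ryr1 and Atp2a1, filled on the right, lie near or under the filter level in 1 of the groups compared.

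These counts moved when single arrays were left out. In IGF1R-dnPI3K against IGF1R samples the 12 calls became 1, 3 and 1 without IGF1R replicates 1, 2 and 3, and 7 without any IGF1R-caPI3K array; Casq1 passed in each of these. In IGF1R-caPI3K against IGF1R samples the 0 calls became 9 without IGF1R-dnPI3K replicate 3. In IGF1R-caPI3K against IGF1R-dnPI3K samples the 2 calls became 1, Casq1, when any array but IGF1R-dnPI3K replicate 1 was left out.

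Markers of muscle and of other cells also differed between the groups. Of 8 ventricular muscle markers 3 passed as higher in IGF1R-dnPI3K against IGF1R samples (Myh6, Myl2 and Myl3) and 0 as lower. Fibroblast markers passed as lower in 3 of 7 (Col1a1, Col3a1 and Lum), with a summed signal of 21275 to 23731 against 26639 to 29129 in IGF1R samples. Pdgfra and Tcf21 averaged lower without passing. Dcn, the brightest of the 7, and Col1a2 averaged higher, at 14007 and 2288 against 13154 and 2070, and did not pass. Macrophage markers passed as lower in 3 of 4 tested, and the sum of the 6 measured was 1367 to 2138 against 2718 to 3019. Over all probe sets 5.7% passed as higher and 7.8% as lower in this comparison. Endothelial markers passed as higher in 1 (Vwf) and as lower in 2 (Pecam1 and Kdr) of 6. Their summed signal was 4650 to 5084 in IGF1R-caPI3K samples and 4855 to 5736 in IGF1R-dnPI3K samples, against 5956 to 7318 in IGF1R samples, so that both PI3K groups lay below IGF1R, as they did for Ryr2. Not every marker followed this sum. Vwf averaged 674 and 816 in the IGF1R-caPI3K and IGF1R-dnPI3K groups against 521 in IGF1R samples, and Tie1 815, 1014 and 959 in the same groups. In IGF1R-caPI3K against IGF1R samples 1 of the 8 muscle markers (Ckm) and the 1 lymphocyte marker tested (Cd79a) passed as lower, where 0.0633% of all probe sets did, and no fibroblast, endothelial or macrophage marker passed. Cd79a averaged 80.4 in IGF1R-caPI3K samples, under the filter level of 98.6 to 119. It was tested only through the groups where it was higher, so no size is given for its call. The summed lymphocyte markers were 165 to 199 in IGF1R-caPI3K samples and 275 to 344 in IGF1R-dnPI3K samples, against 369 to 450 in IGF1R samples, lower in both PI3K groups, like Ryr2. Cd79a carried most of this difference, and it did not pass in IGF1R-dnPI3K against IGF1R samples (limma adjusted p = 0.167). Cd3e, Ptprc and Cd8a were not tested, with means of at most 73.5 in any group. The summed red blood cell markers were 18929 to 21078 and 20453 to 36404, against 16788 to 18047 in IGF1R samples, higher in both PI3K groups, like S100a1. Only Hba-a1 and Alas2 were measured, and Hba-a1 made up most of this sum. Alas2 averaged 586, 657 and 663.5 in the IGF1R-caPI3K, IGF1R-dnPI3K and IGF1R groups, and neither marker passed in any comparison. The summed fibroblast signal in IGF1R-caPI3K samples was 28722 to 31647 and that of macrophages 2683 to 2893, both overlapping IGF1R samples. In IGF1R-caPI3K against IGF1R-dnPI3K samples 2 of 7 fibroblast markers passed as higher (Col1a1 and Lum), where 1.24% of all probe sets passed in either direction. Besides Casq1, which passed as higher, only Cd79a passed among the other markers, as lower and with the limit given above. The part of these shifts in the differences of Ryr2, S100a1, Casq1 and the phosphatases was not tested.

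**Figure D5:**
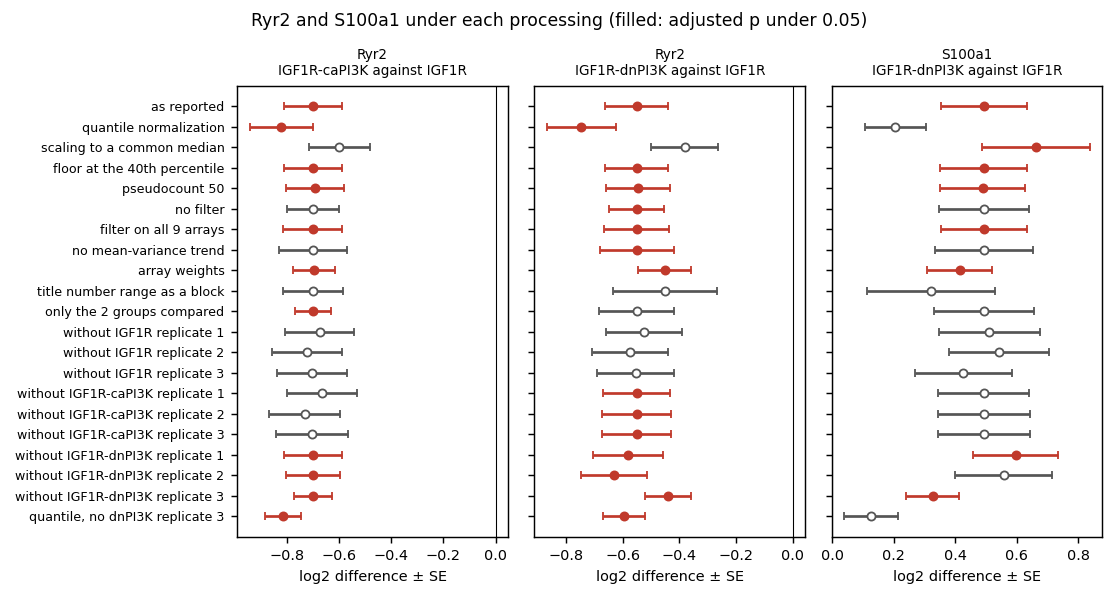
Log2 difference ± SE (x axis) of Ryr2 in IGF1R-caPI3K and in IGF1R-dnPI3K against IGF1R samples, and of S100a1 in IGF1R-dnPI3K against IGF1R samples, as reported (top) and under 20 other ways of processing. Filled points passed at an adjusted p under 0.05. Ryr2 ranges from -0.82 to -0.60 and from -0.75 to -0.38, and S100a1 from 0.13 to 0.66.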

How the data were processed

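RNA of both ventricles was measured on 9 arrays, 3 per group. Groups came from the sample titles. Replicates carry numbers in order of deposit, and these pair nothing. The deposited values were 1 linear intensity per probe set and array, with 12488 probe sets that include 66 controls. From the values, the authors had scaled every array to a mean of about 500 after trimming 2% at both ends. The sources used here name neither the algorithm nor detection calls. The platform annotation gave 10833 probe sets 1 symbol, 396 several and 1193 none.

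Signals under 32.4, the 20th percentile of positive intensities, were set to that floor before log2. No tested member value lay there. A probe set was tested if it exceeded the 40th percentile of its array on 3 or more arrays, which held for 7898. One model over the 9 arrays was fitted in limma 3.58.1 (lmFit, eBayes with a mean-variance trend, R 4.3.3, statmod 1.5.0). Benjamini-Hochberg adjustment covered all 7898, and the threshold was 0.05. Precision is limited by the array number. The fit was tested on simulated data.

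The members, the related genes and the markers were chosen with earlier results of these data known. Named genes were all members, up to 6 related genes per comparison with the lowest p among those that passed, and the 3 genes most like the member with the lowest p of the F test. The alternatives changed the normalization, floor, filter, variance model, array weights, groups fitted or probe sets kept, added the title number range as a block, or left out 1 array. Quantile normalization without IGF1R-dnPI3K replicate 3 was added after seeing the data.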

Additional observations from a re-analysis of the deposited data

How the results depend on the processing

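Over the 20 alternatives that keep every member, with 9 member probe sets in 3 comparisons, 34 of 540 log2 differences changed sign, and 0 of these 34 had a limma adjusted p under 0.05. The direction of Ryr2 was kept in all 3 comparisons. Ryr2 passed under 10 of the 20 in IGF1R-caPI3K against IGF1R (adjusted p 0.00159 to 0.169) and under 14 in IGF1R-dnPI3K against IGF1R (0.0063 to 0.406). S100a1 kept its direction in IGF1R-dnPI3K against IGF1R and passed under 7 (0.0149 to 0.580). The cause of these changes was not tested. No paired analysis was possible because replicate numbers were given in deposit order and pair no samples; a block on the range of title numbers was fitted, as given below.

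Counts are given for IGF1R-caPI3K against IGF1R as the first comparison, IGF1R-dnPI3K against IGF1R as the second and IGF1R-caPI3K against IGF1R-dnPI3K as the third. As reported, members passing were 1, 2 and 0, related probe sets 0, 12 and 2, and all probe sets 17, 1066 and 98. With 1 array left out, members ran from 0 to 1, 0 to 5 and 0 to 1, related probe sets from 0 to 9, 1 to 15 and 1 to 3, and all probe sets from 0 to 550, 73 to 1861 and 10 to 539. The other counts that moved by more than 1.5 times were these. Quantile normalization gave 77 probe sets in the first, 4 members in the second (Atp2a2, Cacna1c, Ryr2 and Slc8a1) and 1 related probe set in the third. A common median gave 0 members and 3 probe sets in the first, 1 member (S100a1) in the second and 1 related probe set in the third. The higher floor gave 67 probe sets in the first and 1 related in the third, and a pseudocount of 50 gave 27 in the first. No filter gave 0 members and 0 probe sets in the first (1766 at an unadjusted p under 0.05), 1 member, 2 related and 387 probe sets in the second, and 1 related and 36 in the third. A filter on all 9 arrays gave 42 probe sets in the first and 1 related in the third. No variance trend gave 0 members and 7 probe sets in the first, 1 member, 7 related and 657 in the second, and 45 in the third. Array weights gave 9 related and 777 probe sets in the first and 348 in the third. The number range as a block gave 0 members and 1 probe set in the first, 0 members, 0 related and 5 probe sets in the second, and 0 related and 8 in the third; its second comparison rests on IGF1R-dnPI3K replicate 1 alone. Fitting only the groups compared gave 9 related and 699 probe sets in the first, 0 members, 1 related and 132 in the second, and 1 related and 13 in the third. Dropping probe sets with a name that marks shared targets gave 0 members and 3 probe sets in the first and 1 member (Ryr2) in the second. Quantile normalization without IGF1R-dnPI3K replicate 3 gave 2 members (Atp2a2 and Ryr2), 8 related and 522 probe sets in the first, 485 in the second and 1 related in the third.

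The differences that changed sign, none of which had passed, were these on the log2 scale. In the first comparison, Hrc was 0.063 with a common median and -0.10 to 0.019 with 1 array left out, Fkbp1b -0.035 to 0.29 and Slc8a1 99525_at -0.00052 to 0.30. In the second, Fkbp1b was 0.0013 with a common median, 0.16 with the block, 0.13 under the added quantile setting and -0.30 to 0.037 with 1 array left out. Atp2a2 was 0.12 with a common median, Hrc -0.25 with the block, and Slc8a1 99525_at -0.086 to 0.32 with 1 array left out. In the third, Slc8a1 99524_at was 0.037 with quantile normalization and -0.078 to 0.016 with 1 array left out, and Atp2a2 was 0.088 with quantile normalization. Slc8a1 99525_at was -0.011 with quantile normalization, -0.0088 with a common median, -0.048 with array weights, -0.12 with the block, -0.20 under the added quantile setting and -0.19 to 0.23 with 1 array left out. Cacna1c was -0.0023 with a common median, -0.0058 with array weights, -0.094 with the block, -0.049 under the added setting and -0.048 to 0.13 with 1 array left out. With the block, Fkbp1b was -0.054, Hrc 0.21 and Casq2 -0.015, and S100a1 was 0.0029 under the added setting. Of the members, S100a1 95452_i_at and 95454_at and Slc8a1 93168_at gave signals too near background for a comparison.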
